A study of Rattus norvegicus with 12 samples.

Results

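The axon injury and regeneration genes are a group that neurons switch on when an axon is cut or regrows. The group listed Sprr1a, Gap43, Atf3, Gal, Sox11, Stmn2, Cap23 and Basp1. Each gene was taken from array probes annotated with exactly 1 gene symbol, and the brightest probe by mean over all 12 arrays was to be used where a gene had several. Of the 8 listed names 7 were measured, each by 1 probe, so brightness decided no choice. They are 7 of the 18166 genes measured. The genes were chosen by their known function and with earlier values of these same arrays in view, among them the left deaf minus left control difference of Sprr1a, which is therefore given below as a description that supports nothing. Cap23 matched no probe, and it is an older name of the protein made from Basp1.

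Sprague-Dawley rats had the right cochlea ablated, which left them deaf on that side, or had a sham operation in which the bone over the middle ear was not drilled. Per the series' design text there were 20 rats in each arm, and the inferior colliculus (IC), the auditory centre of the midbrain, was collected 2 weeks later. There are 3 arrays for each of 4 groups: left IC of deaf rats, right IC of deaf rats, left IC of sham-operated control rats and right IC of sham-operated control rats. The labels give neither age nor sex, and do not state how many rats stand behind an array or whether arrays came from separate animals, so the replicate spread behind the p-values may in part be technical. Input to the left IC comes mainly from the right, ablated ear. The neurons of the IC are not themselves cut by the operation: the auditory nerve, which ends in the hindbrain, is.

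The sample titles name the IC, whereas hippocampus stands in the title of the series and in the descriptions, which call the deaf arrays a noise group. Of 11 measured neuronal markers 10 lay above the median level of all genes (5.97). Several of these are general neuronal genes, which do not tell the IC from the hippocampus. Of 12 midbrain markers 8 lay above that median, led by Meis2 at 9.34. Of these 8, En2 (5.986) and Lmx1b (5.984) lay barely above it. The midbrain markers Tal1, Pax7, Tfap2b and Pou4f1 lay below it, at 5.65, 5.38, 5.32 and 5.22. Of 11 measured hippocampal markers 4 lay above the median, led by Zbtb20 at 8.51, while the forebrain genes Tbr1 and Emx1 were at 4.42 and 4.68. Values are log2 intensities that the authors had made comparable between arrays. Across all genes the arrays correlated at 0.982 to 0.993, and right control 3 lay farthest out on the first principal component. No filter on dim genes was applied, so all 7 genes entered every test.

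After an axon is cut, injury kinases reach the nucleus and transcription factors such as ATF3 and SOX11 start a growth programme. Its products include the growth cone proteins GAP43 and BASP1, the microtubule regulator STMN2, the neuropeptide galanin and SPRR1A, a small proline-rich protein known from skin that injured sensory neurons also make. In the adult brain Gap43, Basp1 and Stmn2 are also active in uninjured neurons, whereas Atf3 and Sprr1a are best known from injured ones.

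Sprr1a had its lowest values in the left IC of deaf rats, Atf3 had its highest mean there, and Sox11 had its highest mean in the right IC of deaf rats. The growth cone genes Gap43 and Basp1 and the microtubule gene Stmn2 had overlapping arrays between deaf and control rats on both sides. None of the 7 genes passed the adjusted threshold of 0.05 in any of 6 contrasts tested with limma, in which p-values were adjusted over all 18166 genes. The same test called 0 of 18166 genes (0%) in each contrast. Sprr1a was set aside in counts of contrasts that use its left deaf arrays. At an unadjusted p under 0.05, limma gave 0 of the other 6 genes on the left, where 3.69% of all genes reached it. It gave 1 of the other 6 over both sides (Sox11; 4.53% of all genes), 0 of 6 in the side by deafness interaction (3.42%) and 0 of 6 between the deaf sides (3.34%). With all 7 genes counted it gave 1 of 7 on the right (Sox11; 4.31%) and 0 of 7 between the control sides (4.95%).

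**Figure D1:**
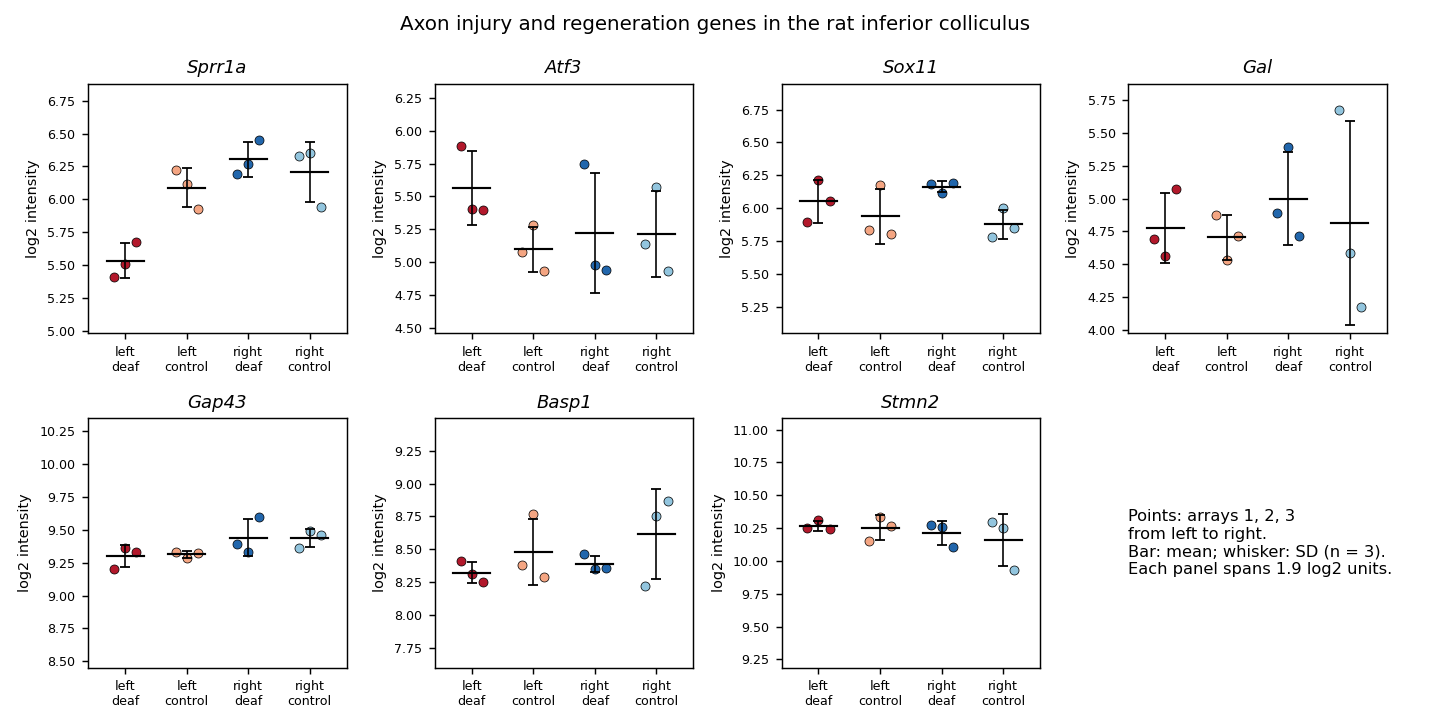
Log2 intensity (vertical axis) of the 7 genes on each array, by group (horizontal axis), with points for arrays 1, 2 and 3, a bar for the mean and a whisker for the SD (n = 3). The 3 left deaf points of Sprr1a lie below the other 9, whereas deaf and control arrays of the same side overlap for Gap43, Basp1, Stmn2 and Gal.

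Sprr1a (Entrez 499660) encodes a cross-linked envelope protein of skin that cut sensory neurons carry into growing axons. Its level was 5.41, 5.51 and 5.68 in the left IC of deaf rats and 6.23, 6.11 and 5.93 in the left IC of control rats. All 3 left deaf arrays lay below all 3 left controls. The difference was -0.56 (SE 0.13, 95% interval -0.84 to -0.27), a level 0.68 times that of control. In the right IC the levels were 6.19, 6.27 and 6.45 in deaf rats and 6.33, 6.35 and 5.94 in control rats. Those arrays overlapped, and the difference was 0.096 (SE 0.13, interval -0.19 to 0.38).

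The widest gap for Sprr1a was between the sides of the deaf rats. The left deaf mean of 5.53 ± 0.13 stood against a right deaf mean of 6.30 ± 0.13 (SD, n = 3 each), a difference of -0.77 (SE 0.13, interval -1.05 to -0.49), with arrays that did not overlap. Arrays of the deaf sides did not overlap for 8.31% of all genes and for 0 of the other 6 genes here. The same left deaf arrays enter this difference and the left one, so it too is a description, and it did not pass the adjusted threshold. In control rats the left minus right difference was -0.12 (SE 0.13, interval -0.40 to 0.16), and the arrays overlapped. That difference was -0.25 with right control 3 left out and -0.039 with left control 3 left out. The change with deafness differed between left and right by -0.65 (SE 0.18, interval -1.05 to -0.25). This value also uses the left deaf arrays in view when Sprr1a was chosen. It is a description that supports nothing, and it did not pass the adjusted threshold. From high to low the groups ran right deaf, right control (6.21), left control (6.09) and left deaf, and the 3 first named did not differ beyond their spread. The highest left deaf array, at 5.68, was 0.25 below the lowest of the other 9, at 5.93. Left deaf arrays lay below all 9 others for 111 genes (0.611%).

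**Figure D2:**
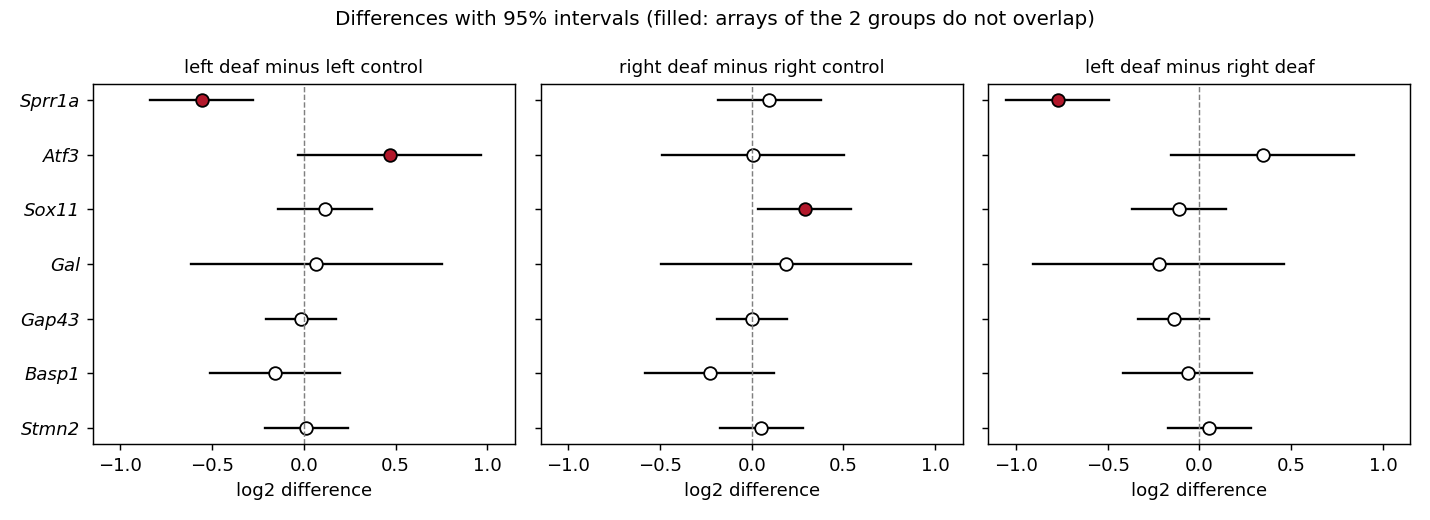
Log2 differences (horizontal axis) of the 7 genes for left deaf minus left control, right deaf minus right control and left deaf minus right deaf, with 95% intervals as lines. Filled points mark differences in which the arrays of the 2 groups do not overlap: Sprr1a at -0.56 and Atf3 at 0.47 on the left, Sox11 at 0.29 on the right and Sprr1a at -0.77 between the deaf sides.

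The sequence before the start of Sprr1a is shown because its left deaf arrays lay below all others, and that of Ecel1 because its pattern over the arrays was the most like that of Sprr1a. Both are RefSeq sequences of build GRCr8 from 250 bases before to 50 bases after the annotated gene start, on the minus strand, at chr2:180752576-180752875 for Sprr1a and chr9:95274523-95274822 for Ecel1. Capitals mark TGAGTCA, the AP-1 element bound by dimers of JUN, FOS and ATF proteins, and TATAAA, the TATA element, each searched on both strands.
Sprr1a: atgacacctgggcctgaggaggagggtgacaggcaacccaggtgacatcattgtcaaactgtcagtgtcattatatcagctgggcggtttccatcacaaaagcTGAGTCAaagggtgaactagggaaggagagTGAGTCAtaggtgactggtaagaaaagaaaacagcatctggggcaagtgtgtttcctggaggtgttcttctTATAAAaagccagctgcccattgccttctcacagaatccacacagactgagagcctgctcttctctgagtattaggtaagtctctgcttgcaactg
Ecel1: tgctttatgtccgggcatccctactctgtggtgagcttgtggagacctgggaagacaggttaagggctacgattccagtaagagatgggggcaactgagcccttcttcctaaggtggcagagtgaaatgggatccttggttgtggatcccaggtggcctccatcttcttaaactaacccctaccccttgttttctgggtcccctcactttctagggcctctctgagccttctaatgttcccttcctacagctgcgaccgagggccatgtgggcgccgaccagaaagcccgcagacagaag
Sprr1a held TGAGTCA at 147 to 141 and again at 117 to 111 bases before the start, and TATAAA at 46 to 41 bases before it. TGAGTCA on either strand occurred in 4.63% of 33469 promoter windows of this length, and more than 1 copy in 0.17%. TATAAA occurred in 14.2%. The cAMP response element TGACGTCA, in 1.83% of windows, was not among the letters of either sequence. Of the 7 measured genes 4 matched the promoter table (Sprr1a, Gal, Sox11 and Basp1), and of the other 3 matched genes only Gal held any of these motifs, a TATAAA at 41 to 36 bases before its start.

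Of 16061 genes compared, Ecel1 had the highest correlation with Sprr1a over the 12 arrays (Pearson r = 0.884, Spearman rho = 0.825, and r = 0.71 for deviations from the group means). Ecel1 encodes an endopeptidase known for its induction in damaged neurons. Cyria, a regulator of the actin cytoskeleton (r = 0.883), and Ankrd34b (r = 0.881) came next, and 21 genes exceeded an r of 0.8. All values come from the same 12 arrays, and with so many genes high correlations arise without any link, so the figures are descriptive.

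Ecel1 was at 5.19, 5.13 and 5.38 in left deaf arrays and 5.53, 5.55 and 5.68 in left control arrays, and all 3 deaf arrays were lower. The difference was -0.35 (SE 0.13, limma adjusted p = 1.00). On the right its levels were 5.56, 5.55 and 5.85 in deaf rats and 5.92, 5.86 and 5.49 in control rats, which overlapped. Like Sprr1a, Ecel1 had all 3 left deaf arrays below the other 9, as did Cyria, Ankrd34b and Vgf, against 0.611% of all genes. Ecel1, Cyria and Ankrd34b were picked for their likeness to Sprr1a over these same arrays, and Vgf for a side pattern already known. Sharing the low left deaf arrays therefore follows largely from the choice. Vgf, a neuropeptide precursor induced by neurotrophins, averaged 7.29 in left deaf and 8.17 in left control arrays, and its means were 8.06 in both right groups. The opioid peptide gene Penk differed by -0.34 (SE 0.092, limma adjusted p = 1.00) on the left and by 0.053 (SE 0.092) on the right.

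**Figure D3:**
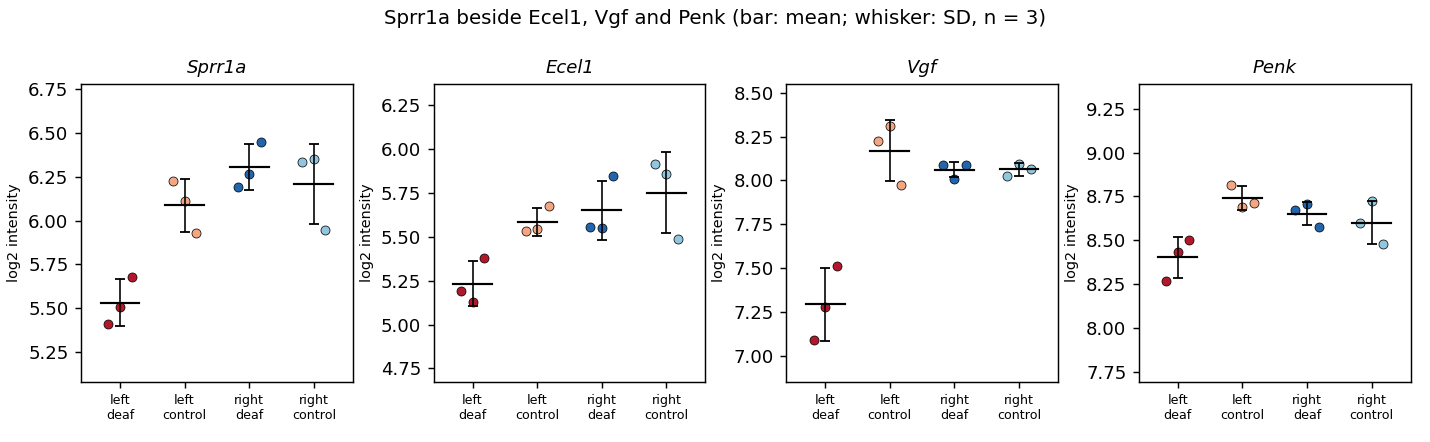
Log2 intensity (vertical axis) of Sprr1a, Ecel1, Vgf and Penk on each array by group (horizontal axis), with the mean as a bar and the SD as a whisker (n = 3). Left deaf means are 5.53, 5.23, 7.29 and 8.40, and the left deaf arrays lie below all others for Sprr1a, Ecel1 and Vgf but not for Penk.

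In bulk tissue a lower level can come from fewer cells of a type or from less RNA per cell, and these cannot be told apart here. Over 11 measured neuronal markers the mean centred score was -0.11 to -0.050 in left deaf and -0.031 to 0.022 in left control arrays, which did not overlap. In right deaf arrays it was -0.015 to 0.062 and in right control arrays -0.11 to 0.18. On the left 7 of the 11 markers had lower means, with a median difference of -0.0076. The lowest were the glycine transporter gene Slc6a5 at -0.40 (SE 0.46) and the GABA synthesis gene Gad1 at -0.23 (SE 0.12). The left difference in the score rests largely on these 2 genes, and Slc6a5 was dim, at a mean level of 5.31. The general neuronal genes Snap25 and Rbfox3 were at 0.17 (SE 0.13) and 0.0095 (SE 0.094). Over the 12 arrays Sprr1a and the neuronal score had a Pearson r of 0.746, and 0.83 for deviations from the group means. The neuronal list is given because its r was the largest for Sprr1a among the 16 marker lists. The r of 0.746 also includes the left deaf values in view when Sprr1a was chosen, so both figures are descriptions. Oligodendrocyte markers had scores of -0.12 to -0.042 in left deaf and -0.00039 to 0.030 in left control arrays, which did not overlap either, with lower left deaf means in 7 of 9 genes, 2 of them at an unadjusted limma p under 0.05. The part of the neuronal and oligodendrocyte markers in the Sprr1a difference was not tested. Meningeal markers had higher means in left deaf arrays in 12 of 12 genes, against 48.2% of all genes. Of these 12, 0 reached an unadjusted limma p under 0.05. Their score was 0.72 in left deaf 2. It was -0.086 in left deaf 1 and -0.15 in left deaf 3, within the left control range of -0.40 to 0.14. With 1 left array left out the left difference of Sprr1a was between -0.64 and -0.49. Sprr1a is also a gene of surface epithelia, and of 8 measured epithelial markers, 7 of them with lower left deaf means, 0 exceeded the median level of all genes. Their scores overlapped, at -0.15 to 0.081 in left deaf and -0.15 to 0.10 in left control arrays.

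Atf3 (Entrez 25389) encodes a transcription factor that is barely made in resting neurons and is used as a marker of axon injury. Its level was 5.89, 5.41 and 5.40 in left deaf arrays and 5.08, 5.28 and 4.93 in left control arrays. All 3 left deaf arrays were higher than all 3 left controls. The difference was 0.47 (SE 0.23, interval -0.030 to 0.97, limma adjusted p = 1.00), and without left deaf 1 it was 0.31. Sprr1a aside, Atf3 was the 1 gene of the other 6 whose left arrays did not overlap, which was so for 10.3% of all genes. On the right the levels were 5.75, 4.98 and 4.94 in deaf rats and 5.14, 5.57 and 4.93 in control rats. Array 1 was the highest within both deaf groups, and on the right deaf and control arrays overlapped, with a difference of 0.0075 (SE 0.23, interval -0.49 to 0.51). The order of the group means was left deaf (5.56), right deaf (5.22), right control (5.21) and left control (5.10), and only left deaf and left control did not overlap. The side difference in the change was 0.46 (SE 0.32, interval -0.24 to 1.17, limma adjusted p = 1.00). It was 0.28 with right control 2 left out and 0.72 with right deaf 1 left out.

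Atf3 was a dim gene, with 38% of genes at a lower mean, and its spread within groups exceeded that of 95% of genes. Its pattern was most like those of Pafah1b1, a dynein regulator needed for neuronal migration (r = 0.88), the transcription factor gene Pax1 (r = 0.877) and Arf2 (r = 0.857). Jun, which encodes the partner of ATF3 in injured neurons, averaged 7.43 ± 0.24 in left deaf and 7.36 ± 0.033 in left control arrays, and 7.45 ± 0.036 in right deaf and 7.36 ± 0.046 in right control arrays (SD, n = 3 each). Left deaf 1, the highest array for Atf3, was also the highest for Jun, at 7.70. The stress factor gene Ddit3 averaged 6.62 in left deaf and 6.66 in left control arrays.

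Sox11 (Entrez 84046) encodes a SoxC transcription factor of immature neurons that sensory neurons switch on again after injury. On the right its level was 6.18, 6.12 and 6.19 in deaf rats and 5.78, 5.998 and 5.85 in control rats. All 3 right deaf arrays lay above all 3 right controls, which was so for 1 of the 7 genes, against 7.48% of all genes in either direction. The difference was 0.29 (SE 0.12, interval 0.034 to 0.54, limma unadjusted p = 0.0297 and adjusted p = 1.00). With 1 array left out, the right difference of Sox11 was between 0.24 and 0.35. Its limma unadjusted p was under 0.05 in 8 of the 12 fits and highest, at 0.095, without right control 1. Fits that leave out a left array cannot move the right difference, so the count does not measure its stability. On the left the levels were 5.89, 6.22 and 6.05 in deaf rats and 5.83, 6.18 and 5.80 in control rats. Those arrays overlapped, since left control 2 lay above 2 of the 3 left deaf arrays, and the difference was 0.12 (SE 0.12, interval -0.14 to 0.37). It was 0.035 with left deaf 2 left out and 0.24 with left control 2 left out.

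Over both sides the deaf minus control difference of Sox11 was 0.20 (SE 0.083, interval 0.023 to 0.38, limma adjusted p = 0.998), and the left difference minus the right one was -0.17 (SE 0.17, interval -0.53 to 0.19, limma adjusted p = 1.00). The order of its means was right deaf (6.16), left deaf (6.05), left control (5.94) and right control (5.88), in which each neighbouring pair overlapped. Cerebellar markers differed on the right: their score was -0.21 to -0.14 in right deaf and 0.097 to 0.73 in right control arrays, with lower means in 11 of 11 genes. Immature neuron markers, among them Dcx, did not separate, at -0.016 to 0.0045 in right deaf and -0.045 to 0.024 in right control arrays. The part of the cerebellar markers in the Sox11 difference was not tested. Sox4, the closest relative of Sox11, did not show the same order: it averaged 6.79 ± 0.095 in left deaf and 6.62 ± 0.060 in left control arrays, and 6.57 ± 0.057 in right deaf and 6.54 ± 0.14 in right control arrays (SD, n = 3 each). Vil1, an actin-bundling gene (r = 0.904), the retinol dehydrogenase gene Rdh8 (r = 0.898) and the neuronal endosome gene Nsg2 (r = 0.817) were the most like Sox11.

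Gal (Entrez 29141) encodes galanin, a neuropeptide that injured sensory and motor neurons make in quantity and that brainstem monoamine neurons of the rat carry at rest. Its level was 4.69, 4.56 and 5.07 in left deaf arrays and 4.87, 4.53 and 4.72 in left control arrays, and 4.89, 5.39 and 4.71 in right deaf arrays and 5.68, 4.58 and 4.17 in right control arrays. The groups overlapped on both sides, and the right controls alone spanned the whole range of the 12 arrays. The differences were 0.069 (SE 0.31, interval -0.61 to 0.75) on the left and 0.19 (SE 0.31, interval -0.50 to 0.87) on the right. On the right it was 0.62 with right control 1 left out, -0.13 with right control 3 left out and -0.010 with right deaf 2 left out. The spread of Gal within groups exceeded that of 99.2% of genes.

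The 3 arrays with the highest Gal were right control 1, right deaf 2 and left deaf 3. The same arrays held the 3 highest values of Tph2, the serotonin synthesis gene of raphe neurons, at 7.64, 7.50 and 7.80, while the other 9 arrays had Tph2 between 4.77 and 6.65. They also held the 3 highest values of the serotonin transporter gene Slc6a4, at 6.94, 6.67 and 7.19, against 4.71 to 5.57 on the other 9. Right control 3, with the lowest Gal, had the lowest Tph2 and Slc6a4. The dorsal raphe, the main serotonergic nucleus, lies in the midbrain beneath the colliculi. The other serotonergic markers did not share this: Fev ran from 5.01 to 5.52, Slc22a3 from 3.29 to 3.69 and Htr1a from 6.72 to 7.22 over all arrays, and the highest value of each was on an array other than those 3. This relation was noticed after the values were seen, among 112 pairings of the 7 genes with 16 marker lists, and its part in the Gal differences was not tested. Because 3 arrays stand apart from the other 9, no correlation is given. Noradrenergic markers, which also mark neurons that carry galanin, scored -0.16 to 0.033 in right deaf and -0.028 to 0.40 in right control arrays, with right control 1 the highest of the 12.

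**Figure D4:**
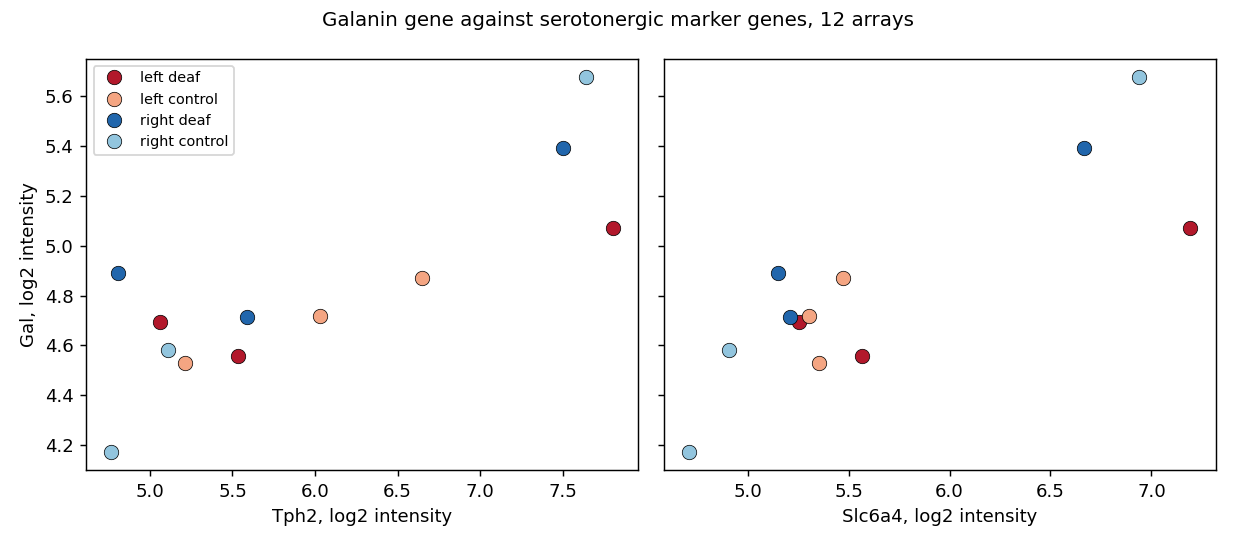
Log2 intensity of Gal (vertical axis) against those of Tph2 and Slc6a4 (horizontal axes) on the 12 arrays, coloured by group. The 3 arrays with Tph2 above 7 and Slc6a4 above 6 come from 3 different groups and have the 3 highest Gal values (5.07 to 5.68).

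No galanin receptor gene passed the threshold on either side. Of 6 measured genes of the galanin receptor and ligand list 4 had higher and 2 lower means on each side, and 0 reached an unadjusted p under 0.05. The receptor gene Galr2 was at -0.22 (SE 0.17) on the left and 0.14 (SE 0.17) on the right, and Galr1, at 6.83 ± 0.41 in left deaf and 6.67 ± 0.25 in left control arrays (SD, n = 3 each), overlapped.

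Gap43 (Entrez 29423) encodes the growth-associated membrane protein that growth cones carry in bulk. It was at 9.20, 9.36 and 9.34 in left deaf arrays and 9.33, 9.28 and 9.32 in left control arrays, and at 9.39, 9.33 and 9.60 in right deaf arrays and 9.36, 9.49 and 9.46 in right control arrays. Deaf and control arrays overlapped on both sides, with differences of -0.015 (SE 0.088, interval -0.21 to 0.18) on the left and 0.0029 (SE 0.088, interval -0.19 to 0.195) on the right. The intervals reach down to -0.21 and up to 0.195. The left minus right difference of Gap43 was -0.14 (SE 0.088, limma adjusted p = 1.00) in deaf rats and -0.12 (SE 0.088, limma adjusted p = 0.938) in control rats. The control arrays of the sides did not overlap, as for 9.80% of all genes, and those of deaf rats did. Its order was right deaf (9.44), right control (9.44), left control (9.31) and left deaf (9.30).

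Basp1 (Entrez 64160) encodes a second membrane protein of growth cones, which binds calmodulin and lipids in a manner like GAP43. It was at 8.41, 8.31 and 8.25 in left deaf arrays and 8.38, 8.77 and 8.29 in left control arrays, and at 8.46, 8.35 and 8.36 in right deaf arrays and 8.22, 8.75 and 8.87 in right control arrays. The 6 deaf arrays lay within 8.25 to 8.46, and 3 of the 6 controls lay above them. The differences were -0.16 (SE 0.16, interval -0.51 to 0.20) on the left, -0.23 (SE 0.16, interval -0.58 to 0.12) on the right and -0.19 (SE 0.11, interval -0.44 to 0.056, limma adjusted p = 0.998) over both. The right difference was -0.42 with right control 1 left out and -0.10 with right control 3 left out, and the left one was -0.014 with left control 2 left out. Basp1 was lowest on right control 1, the array with the highest Gal, and next lowest on left deaf 3, the array with the highest Tph2.

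Stmn2 (Entrez 84510) encodes stathmin 2, a neuronal protein that keeps growth cone microtubules dynamic and is needed for axon repair. Its 3 left deaf arrays were at 10.25, 10.31 and 10.24, against 10.15, 10.34 and 10.27 in left control rats. Right deaf arrays were at 10.28, 10.26 and 10.11, against 10.29, 10.25 and 9.93 in right control rats. All groups overlapped, with differences of 0.015 (SE 0.10, interval -0.21 to 0.24) on the left and 0.052 (SE 0.10, interval -0.17 to 0.28) on the right. The order of the means was left deaf (10.27), left control (10.25), right deaf (10.21) and right control (10.16), and right control 3 was the lowest of the 12 arrays.

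Sprr1a aside, 4 of the other 6 genes had higher deaf means on the left, where 48.2% of all genes did. On the right 6 of the 7 genes did, where 50.5% of all genes did. Of these 6, Gap43 (0.0029) and Atf3 (0.0075) hardly differed, and all but Sox11 changed sign in at least 1 fit with 1 array left out. The median difference of the 7 was 0.015 on the left and 0.052 on the right, against -0.0051 and 0.0014 over all genes. Among the 21 pairs the Pearson correlations over the 12 arrays ran from -0.692 for Gal with Basp1 to 0.591 for Sprr1a with Gap43. Sprr1a and Atf3, the 2 genes whose left groups did not overlap, had opposite signs on the left and a correlation of -0.436, which was -0.016 for deviations from the group means. The arrays share their normalization, so these correlations are descriptions. The patterns most like Gap43 were those of the potassium channel gene Kcnh6 (r = 0.906), Prepl (r = 0.902) and Cldnd2 (r = 0.887), and those most like Basp1 were Tmeff1 (r = 0.892), Myocd (r = 0.872) and the kinase gene Rps6ka3 (r = 0.862). For Gal they were Snrpepl2 (r = 0.903), Spry3 (r = 0.896) and Scyl3 (r = 0.895), and for Stmn2 they were Tmub1 (r = 0.935), the peptidase gene Tpp2 (r = 0.928) and Hoxb9 (r = 0.925).

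Around these genes, 11 lists held 192 other measured genes of axon injury, growth and its inhibition. On the left 98 had higher and 94 lower means (median 0.0032), and on the right 96 had higher and 96 lower means (median 0.0019). With limma 0 of the 192 passed the adjusted threshold on either side. At an unadjusted p under 0.05 there were 0 higher and 6 lower genes on the left (3.12% in all), where 1.70% of all genes were higher and 1.99% lower by that rule. Of these 6 lower genes 2 were in the neuropeptide list, which holds genes seen low on the left when the lists were made. The left split therefore comes in part from the choice of genes and supports nothing. On the right there were 0 higher and 4 lower genes (2.08% in all), where 2.12% of all genes were higher and 2.19% lower.

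**Figure D5:**
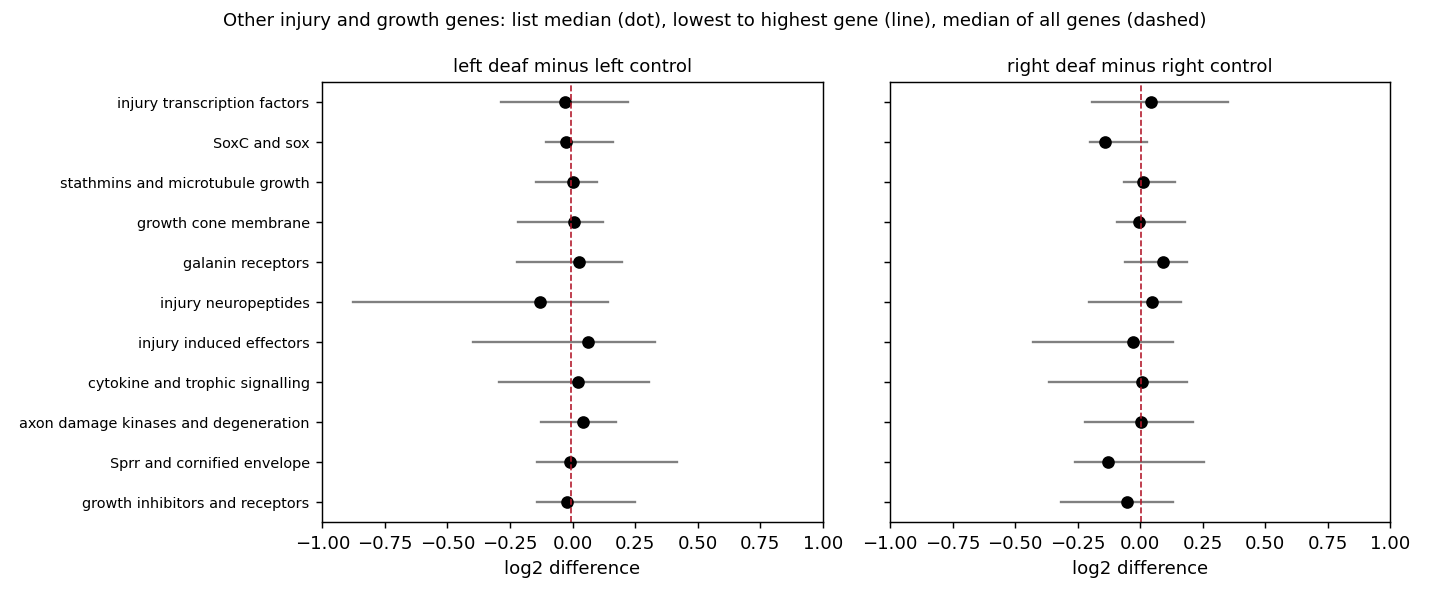
Log2 differences (horizontal axis) of the 11 lists, deaf minus control, left IC and right IC, with the list median as a dot, the range of its genes as a line and the median of all genes dashed. The left neuropeptide list reaches farthest down, to -0.88, the value of its lowest gene, Vgf, and all list medians lie within 0.15 of 0.

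Of the injury transcription factors, 10 of 23 had higher means on the left and 16 of 23 on the right, with medians of -0.029 and 0.044. The immediate early factor gene Egr2 was at -0.29 (SE 0.16) on the left and 0.30 (SE 0.16) on the right, and Egr1 at 0.20 (SE 0.10) on the right. Atf4, which mediates the integrated stress response, was at -0.12 (SE 0.081) on the left, where its arrays did not overlap. Rest, a repressor of neuronal genes, was at -0.17 (SE 0.10) on the left and -0.19 (SE 0.10) on the right. Of 7 other Sox genes 6 had lower means on the right, where 49.5% of all genes did, among them the oligodendrocyte factor genes Sox8 (-0.19, SE 0.079, limma adjusted p = 1.00) and Sox10 (-0.17, SE 0.11). Oligodendrocyte markers had lower right deaf means in 9 of 9 genes, with scores of -0.093 to 0.0046 in right deaf and 0.026 to 0.17 in right control arrays, and their part in the Sox8 and Sox10 values was not tested.

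The neuropeptide list had the lowest left median, -0.13, with 14 of 17 genes lower, against 51.8% of all genes, and 12 of 17 had higher means on the right, where the median was 0.048. Beside Vgf and Penk its lowest p on the left belonged to Nts, the neurotensin gene (-0.46, SE 0.21, limma adjusted p = 1.00), whose arrays overlapped. This list holds the genes that had been seen low on the left when the lists were made. Among injury-induced effectors 16 of 27 had higher means on the left and 12 of 27 on the right. Besides Ecel1 (limma unadjusted p = 0.017), only Itga7, a laminin receptor subunit gene linked to axon regrowth, had a left unadjusted p under 0.05. Itga7 was at -0.40 on the left (SE 0.085, limma unadjusted p = 0.00055 and adjusted p = 0.899). Its left control arrays also lay above its right control arrays, by 0.22 (SE 0.085). On the right Crip1 (-0.43, SE 0.15) and the heavy neurofilament gene Nefh (-0.29, SE 0.11) had the lowest p, neither passing (limma adjusted p = 1.00 each). Crip1 was at 0.29 (SE 0.15) on the left.

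Growth cone membrane genes had medians of 0.0076 on the left and -0.0059 on the right. Gprin1, a G protein partner that promotes neurite outgrowth, was at -0.22 (SE 0.097, limma adjusted p = 1.00) on the left, and Nrgn, the dendritic relative of Gap43, at 0.18 (SE 0.099) on the right. The stathmin and microtubule list had 10 of 20 genes higher on the left and 13 of 20 on the right, all between -0.14 and 0.14. Map1b, a microtubule protein of growing axons, was at -0.14 (SE 0.078) on the left and -0.066 (SE 0.078) on the right. Stmn1, Stmn3 and Stmn4, the relatives of Stmn2, averaged 10.63, 8.64 and 9.33 in left deaf arrays and 10.69, 8.62 and 9.36 in left control arrays.

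Cytokine and trophic genes had 18 of 28 higher means on the left and 14 of 28 on the right. Cntf, an injury cytokine of glia, was at -0.29 (SE 0.11) on the left, and Il6st, the shared receptor of that cytokine family, at -0.17 (SE 0.075) on the right, both with a limma adjusted p of 1.00. In the injury kinase and axon degeneration list 11 of 16 genes had higher means on the left, led by Map2k7 (0.17, SE 0.097), an activator of JNK. Map3k12, the kinase that carries the injury signal along the axon, was at 0.11 (SE 0.087), and on the right Mapk8, which encodes JNK1, was at 0.21 (SE 0.11) with arrays that did not overlap. Of the genes for growth inhibitors and their receptors 16 of 22 had lower means on the right, such as Rtn4rl2 (-0.32, SE 0.17), and 13 of 22 on the left, such as the myelin inhibitor gene Omg (-0.12, SE 0.073).

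The Sprr and cornified envelope list, the relatives of Sprr1a in skin, was split on the left. Of its 9 measured genes 4 had higher and 5 lower left means, with a median of -0.011. Sprr1b, whose product is close to that of Sprr1a in structure, averaged 5.47 ± 0.32 in left deaf and 5.61 ± 0.11 in left control arrays, and Sprr3 4.55 ± 0.29 and 4.56 ± 0.079 in the same groups (SD, n = 3 each). Sprr4 was at 0.42 (SE 0.26) with overlapping arrays. Current RefSeq annotation lists Sprr1b both as a gene of its own and as an older name of Sprr1a, so these near copies may share signal on the array, which was not tested.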

How the data were processed

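RNA from the IC was hybridised as biotin-labelled single-stranded cDNA to 12 Affymetrix 1-colour arrays, per the labels' protocols. The deposited values are log2 intensities per probe, made comparable between arrays by the authors. The summarisation software and the array build were not given in the sources used here. Precision is limited by 3 arrays per group. Of 29489 probes, 18511 had 1 gene symbol in the platform annotation, 575 several and 10403 none, which gave 18166 genes (brightest probe for 291 with several). No filter on dim genes was applied.

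Linear models with 4 group means over all 12 arrays were fitted in limma 3.58.1 (R 4.3.3), with two-sided tests (Benjamini-Hochberg over all genes, threshold 0.05). The fit was tested on simulated data. The 7 genes, the 11 lists and the 16 marker lists were chosen with earlier results of these data known. Lists are described by counts and medians. Named are the 7 genes and the 3 genes of smallest p per list and side (a selection of these is printed). Besides these, the 3 genes most correlated with each of the 7 are named. That comparison left out unnamed, predicted and microRNA genes and olfactory and vomeronasal receptor genes. Also named are defining markers, Vgf, and relatives or partners chosen after their values were seen (Jun, Ddit3, the stathmins, Sprr1b, Sprr3, Galr1, Sox4, Tph2, Slc6a4). A marker score is the mean of gene-centred log2 values. Alternatives covered normalization, dim genes, probes, variance model, array weights, groups in the fit, replicate blocks and each array left out.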

Additional observations from a re-analysis of the deposited data

How the results depend on the processing

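Over 898 refits of the 7 genes in 6 contrasts, 859 kept direction and call and 39 changed sign, and none brought a gene past the threshold. Many of these refits could not change a sign. Block fits, the variance model and fits of only the compared groups leave a difference of group means unchanged. So does leaving out an array of a group outside the contrast. The counts therefore do not measure stability. The left and left-minus-right deaf values of Sprr1a, the left value of Atf3 and the right value of Sox11 changed sign in none. Sprr1a was chosen with its left value in view, so its steady sign in refits of the same arrays supports nothing. With array weights the differences were -0.023 for Gap43 and -0.11 for Atf3 on the right, 0.012 for Gap43 and 0.034 for Stmn2 in the side by deafness interaction, and -0.027 for Sox11 between control sides. With 1 array left out, left differences ran from -0.046 to 0.034 (Gap43), -0.080 to 0.18 (Gal) and -0.036 to 0.057 (Stmn2). Right differences ran from -0.037 to 0.17 (Sprr1a), -0.076 to 0.056 (Gap43), -0.26 to 0.19 (Atf3), -0.13 to 0.62 (Gal) and -0.061 to 0.12 (Stmn2). Over both sides they ran from -0.045 to 0.021 (Gap43), -0.031 to 0.34 (Gal) and -0.023 to 0.067 (Stmn2). The interaction ran from -0.071 to 0.061 (Gap43), -0.55 to 0.20 (Gal), -0.10 to 0.076 (Stmn2) and -0.056 to 0.27 (Basp1). Left minus right in deaf rats ran from -0.00032 to 0.085 (Stmn2), and in control rats from -0.26 to 0.062 (Atf3), -0.42 to 0.33 (Gal), -0.058 to 0.13 (Sox11) and -0.023 to 0.16 (Stmn2). The cause was not tested.

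Over all genes limma called 0 in each contrast. It called 1 on the left among genes above the median level, 1 with a variance trend and robust estimation, and 0 to 1 with 1 array left out (1 without left deaf 3). It called 0 to 1 over both sides (1 without right control 3), 1 in the interaction at an adjusted p under 0.1, and between deaf sides 1 among genes above the median level and 2 with the variance trend. None of these was one of the 7 genes. With the replicate number as a fixed block it called 1 in the interaction and 1 between control sides. In the random and the fixed block fits Sox11 on the right was at 0.29 (limma adjusted p = 1.00 in each). Each group holds the same 3 replicate numbers, so a block cannot change this difference. The numbers were not taken as pairs: of 6 same-numbered left and right pairs 2 had deviations correlated above 0.1 (range -0.056 to 0.15), and 6 of 12 arrays correlated best with their own number. Of 328 list medians refitted, 24 moved by more than the spread between arrays. Signal over background is not given in the files used here, so how far dimness limits the values of Gal and Atf3 was not tested.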
